A study of Drosophila melanogaster with 12 samples.

Results

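*Yp1*, *Yp2* and *Yp3* encode the 3 yolk proteins of *Drosophila melanogaster*. They were taken by symbol from the gene count table of 12 RNA-seq samples of fly heads, as 3 of 14162 listed genes and 3 of the 10577 that passed a filter on low counts. All flies were mated females kept at 29 °C, and all carried the pan-neuronal driver nSyb-Gal4. AD flies expressed human Aβ42 with the Arctic mutation, fused to the signal peptide of the fly protein Argos so that neurons secrete it. AD + Yip7 flies expressed the same peptide together with Yip7, a putative chymotrypsin-like serine protease, and AD + Yip7ΔS flies expressed it with a Yip7 form that lacks the putative transmembrane stretch. Control flies (nSyb>w1118) had the driver and no UAS transgene, so that they differ from AD in the number of UAS copies as well as in Aβ42. Each group had 3 samples of pooled heads, aged 10 days, except that Control replicate 3 is labelled as 2 weeks old. The labels name the tissue as head in one field and as brain in another. The study's methods call the replicates biological triplicates of pooled heads, and the labels do not say whether they came from separate crosses.

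Yolk proteins are made by the female fat body and by the follicle cells of the ovary, secreted into the hemolymph, and taken up by growing oocytes through the receptor Yolkless. Their sequence is related to lipases, although they serve as a nutrient store and not as enzymes. The female form of the transcription factor Doublesex switches the genes on, and juvenile hormone, ecdysone and feeding set their output. A head contains fat body around the brain but no ovary, so the head fat body is the known source of these transcripts in such a sample.

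*Yp1* (FBgn0004045) lies on the X chromosome of dm6 from 10053811 to 10055498 on the forward strand. *Yp2* (FBgn0005391) lies next to it, from 10050951 to 10052636 on the reverse strand, so that the 2 genes point away from each other across 1174 bp. *Yp3* (FBgn0004047) stands apart on the same chromosome, from 13759546 to 13761547 on the forward strand. The Ensembl annotation gives each gene 2 transcripts, with up to 2 exons in *Yp1* and *Yp2* and up to 3 in *Yp3*. The merged exons cover 1611 bp in *Yp1*, 1618 bp in *Yp2* and 1868 bp in *Yp3*. An antisense RNA, asRNA:CR45601, is annotated inside *Yp1* from 10054235 to 10055109 on the reverse strand. It was not analysed here, and without strand information its reads cannot be told apart from those of *Yp1*.

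Totals were between 38064884 and 41737332 counts per sample, and values below are counts per 1000000 after TMM scaling (CPM) unless another unit is named. Photoreceptor genes summed to between 35750 and 51890 CPM, the 8 listed male genes in the table summed to less than 0.58 CPM in every sample, and the 17 listed follicle cell and eggshell genes in the table to between 5.32 and 11.8 CPM. *yip7* itself stood at 156, 159 and 94.2 CPM in AD, at 135, 173 and 122.7 CPM in AD + Yip7, at 73.7, 88.1 and 81.1 CPM in AD + Yip7ΔS, and at 5.97, 0 and 6.07 CPM in Control. Its count thus did not tell the AD + Yip7 libraries from the AD libraries (log2 fold change 0.08 ± 0.62 SE, adjusted p = 0.976, edgeR's quasi-likelihood test), although the labels give only the Yip7 groups a *yip7* transgene. The groups with such a transgene are called by their labels below. In the tests of all genes, 26% of genes passed the adjusted p threshold of 0.05 between AD and Control, 14.6% between AD + Yip7 and Control, and 18.9% between AD + Yip7ΔS and Control.

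The yolk protein genes were among the most abundant transcripts of these heads. *Yp1* had the largest read count of all 14162 genes in 12 of 12 samples. By read count *Yp3* was at rank 3 or 4 and *Yp2* at ranks 3 to 6. Summed, the 3 genes took 7.43% ± 0.114 of all counts in AD, 10.7% ± 0.768 in AD + Yip7, 8.87% ± 0.159 in AD + Yip7ΔS and 9.21% ± 0.733 in Control (SD, n = 3 each). The summed share was lowest in AD, at 7.32 to 7.55% of counts, and highest in AD + Yip7, at 10.2 to 11.6%. The ranges of AD + Yip7ΔS (8.71 to 9.03%) and Control (8.36 to 9.64%) overlapped each other and neither of the other groups. Counting error was small at this depth: the *Yp1* share of AD replicate 1, 3.753%, had a Wilson 95% interval of 3.748 to 3.759%, which covers counting error only.

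Per length of merged exons, *Yp1* was the highest of the 3 in every group, with 23747 ± 388 RPKM in AD, 34188 ± 1077 RPKM in AD + Yip7, 28693 ± 963 RPKM in AD + Yip7ΔS and 27616 ± 1289 RPKM in Control (SD, n = 3). *Yp2* stood at 8319 ± 786 RPKM in AD, 15780 ± 2311 in AD + Yip7, 11593 ± 723 in AD + Yip7ΔS and 12962 ± 1151 in Control. *Yp3* stood at 11586 ± 624 RPKM in AD, 14266 ± 1896 in AD + Yip7, 12682 ± 1027 in AD + Yip7ΔS and 14879 ± 1114 in Control. The order of the lower pair was not fixed. *Yp2* was above *Yp3* per length in 3 of 3 AD + Yip7 samples and in 0 of 3 samples of each other group, but with the length of the shortest annotated transcript (1553 bp for *Yp2*, 1488 bp for *Yp3*) it was above in 0 of 3 samples of every group.

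**Figure D1:**
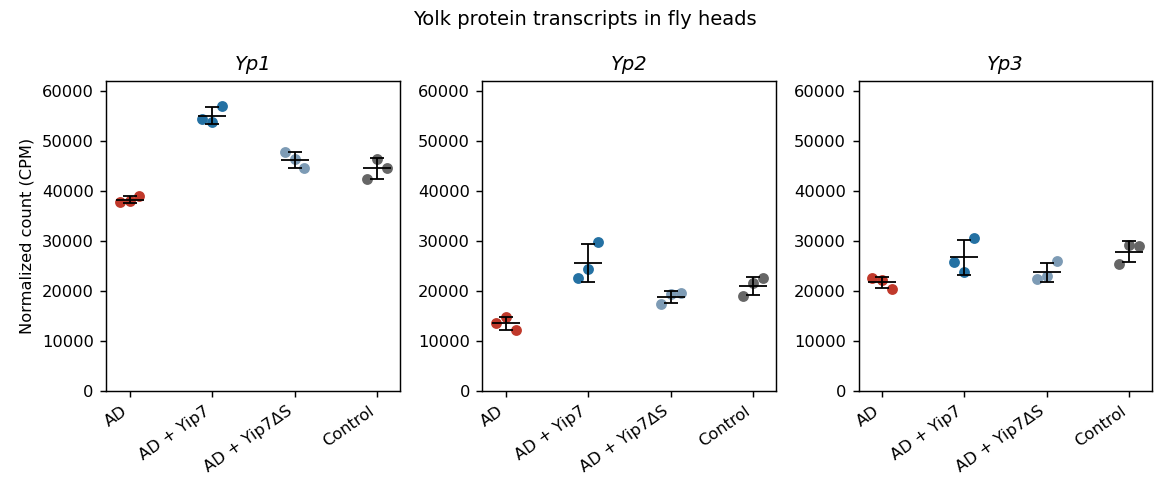
Levels of the yolk protein transcripts in each sample, by group, as CPM after TMM scaling. Points are samples, long bars are means and error bars are the SD of 3 samples. *Yp1* lies lowest in AD (mean 38256 CPM) and highest in AD + Yip7 (mean 55077 CPM), and the same groups are the lowest and highest for *Yp2* (13460 and 25532 CPM); for *Yp3* the Control mean (27795 CPM) is the highest.

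The comparison of AD with Control asks what neuronal Aβ42 does to the head transcriptome. *Yp2* fell in AD, while *Yp1* and *Yp3* were lower in every AD sample without passing the test. *Yp2* had 13431, 14745 and 12204 CPM in AD, against 18907, 21487 and 22523 CPM in Control. No AD sample reached the lowest Control sample. The *Yp2* log2 fold change was -0.64 ± 0.14 (SE, n = 3 each, 95% interval -0.94 to -0.34), a level 0.64 times that of Control (adjusted p = 0.00465, edgeR's quasi-likelihood test over 10577 genes).

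*Yp3* had 22499, 22114 and 20317 CPM in AD, against 25394, 29059 and 28931 CPM in Control, again with no overlap. Its log2 fold change of -0.36 ± 0.13 (interval -0.64 to -0.08) missed the threshold after adjustment (adjusted p = 0.0587, edgeR). *Yp1* had 37775, 38031 and 38962 CPM in AD, against 42334, 46476 and 44656 CPM in Control, also without overlap. Its log2 fold change was -0.22 ± 0.11 (interval -0.45 to 0.01, adjusted p = 0.155, edgeR), the smallest of the 3 in size. Thus 3 of 3 yolk protein genes lay below Control in all AD samples, as 21.2% of all tested genes did, and 1 of 3 was called lower, against 11.6% of all tested genes. DESeq2 on all 12 samples called *Yp1* (adjusted p = 0.00265) and *Yp3* (adjusted p = 0.00718) lower too, and *Yp3* also passed in edgeR without AD + Yip7 replicate 3 (-0.36, adjusted p = 0.0448) or without AD + Yip7ΔS replicate 3 (-0.35, adjusted p = 0.0439). Without Control replicate 3, the sample with the other age label, the *Yp2* log2 fold change was -0.59 (adjusted p = 0.0241, edgeR).

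The comparison of AD + Yip7 with AD asks what an added *yip7* transgene changes in flies that make Aβ42. By their labels these groups differ in the number of UAS transgenes as well as in the protease, and so do AD + Yip7ΔS and AD. *Yp2* and *Yp1* rose in AD + Yip7, and *Yp3* was higher in all samples without passing the test. *Yp2* had 22593, 24264 and 29740 CPM in AD + Yip7, against 13431, 14745 and 12204 CPM in AD. Every AD + Yip7 sample lay well above every AD sample. The *Yp2* log2 fold change was 0.92 ± 0.14 (SE, interval 0.62 to 1.22), or 1.897-fold, and by p it was at rank 40 of the 10577 genes tested (adjusted p = 0.00455, edgeR's quasi-likelihood test).

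*Yp1* had 54473, 53724 and 57034 CPM in AD + Yip7, against 37775, 38031 and 38962 CPM in AD. The gap between the groups was several times wider than the spread within either. Its log2 fold change was 0.53 ± 0.11 (interval 0.29 to 0.76), or 1.44-fold (adjusted p = 0.0294, edgeR). *Yp3* had 25740, 23650 and 30558 CPM in AD + Yip7, against 22499, 22114 and 20317 CPM in AD, a log2 fold change of 0.30 ± 0.13 (interval 0.02 to 0.58, adjusted p = 0.342, edgeR). Here 2 of 3 yolk protein genes were called higher, against 0.945% of all tested genes (1.81% in either direction), and 3 of 3 had no overlap in that direction, against 10.1% of all tested genes. The *Yp1* call was sensitive: its log2 fold change stayed between 0.50 and 0.54 when 1 of the 12 samples was left out, but the adjusted p was above 0.05 without any 1 of the AD replicates, any 1 of the AD + Yip7 replicates or Control replicate 3 (7 of 12 fits, 0.0208 to 0.147 over all 12). It was also above 0.05 with upper quartile scaling (0.47, adjusted p = 0.103), with no count filter (0.51, adjusted p = 0.149) and with the replicate number as a block (0.53, adjusted p = 0.0794). The *Yp2* call held in each of those 12 fits (adjusted p 0.00554 to 0.0358).

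With the truncated protease the differences from AD were smaller. *Yp2* had 17424, 19243 and 19607 CPM in AD + Yip7ΔS, against 13431, 14745 and 12204 CPM in AD, and *Yp1* had 47731, 46308 and 44631 CPM in AD + Yip7ΔS, against 37775, 38031 and 38962 CPM in AD. Both genes were higher in every AD + Yip7ΔS sample, and neither passed the test. The log2 fold change was 0.48 ± 0.14 for *Yp2* (interval 0.18 to 0.78, adjusted p = 0.110, edgeR) and 0.27 ± 0.11 for *Yp1* (interval 0.04 to 0.50, adjusted p = 0.245, edgeR). *Yp3*, with 22276, 22919 and 25874 CPM in AD + Yip7ΔS against 22499, 22114 and 20317 CPM in AD, overlapped between the groups (log2 fold change 0.13 ± 0.13, adjusted p = 0.704, edgeR). So 2 of 3 genes had no overlap in the higher direction, against 9.1% of all tested genes, and 0 of 3 were called in edgeR's test, against 1.85% of all tested genes. At an unadjusted p below 0.05 edgeR took *Yp1* (0.0247) and *Yp2* (0.00417), and DESeq2 on all 12 samples called both (adjusted p = 0.0013 for *Yp1* and 0.00571 for *Yp2*).

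AD + Yip7 was also set directly against AD + Yip7ΔS. *Yp1* (log2 fold change 0.25 ± 0.11, interval 0.02 to 0.48, adjusted p = 0.452, edgeR) and *Yp2* (0.44 ± 0.14, interval 0.15 to 0.74, adjusted p = 0.315, edgeR) were higher in all 3 AD + Yip7 samples than in any AD + Yip7ΔS sample, and *Yp3* overlapped (0.17 ± 0.13, interval -0.11 to 0.45, adjusted p = 0.698, edgeR). None of the 3 passed edgeR's adjusted threshold, in a comparison where only 0.0662% of all tested genes did. A lack of overlap in this direction was found for 2 of 3 yolk protein genes and for 8.27% of all tested genes. At an unadjusted p below 0.05 edgeR took *Yp1* (0.035) and *Yp2* (0.00667), and DESeq2 on all 12 samples called both (adjusted p = 0.0104 for *Yp1* and 0.0334 for *Yp2*). DESeq2 on the 6 samples of the comparison called neither (adjusted p = 0.143 for *Yp1* and 0.0504 for *Yp2*).

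Against Control, AD + Yip7 samples held more *Yp1* and *Yp2* in all 3 samples than any Control sample, a count of 2 of 3 genes beside 21.3% of all tested genes. The log2 fold change was 0.31 ± 0.11 for *Yp1* (interval 0.08 to 0.54, adjusted p = 0.0752, edgeR) and 0.28 ± 0.14 for *Yp2* (interval -0.01 to 0.58, adjusted p = 0.204, edgeR), so that neither was called. DESeq2 called *Yp1* higher on all 12 samples (adjusted p = 3.52e-05) and on the 6 samples of the comparison (adjusted p = 0.000123), and in edgeR it passed without AD + Yip7ΔS replicate 3 (0.31, adjusted p = 0.0498). *Yp3* overlapped, at -0.06 ± 0.13 (interval -0.34 to 0.22, adjusted p = 0.813, edgeR). Between AD + Yip7ΔS and Control all 3 genes overlapped, with log2 fold changes of 0.06 for *Yp1* (interval -0.18 to 0.29), -0.16 for *Yp2* (interval -0.46 to 0.14) and -0.23 for *Yp3* (interval -0.51 to 0.05). These comparisons share the AD, the Control or the Yip7 samples with each other, so their values stand side by side and are not independent.

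**Figure D2:**
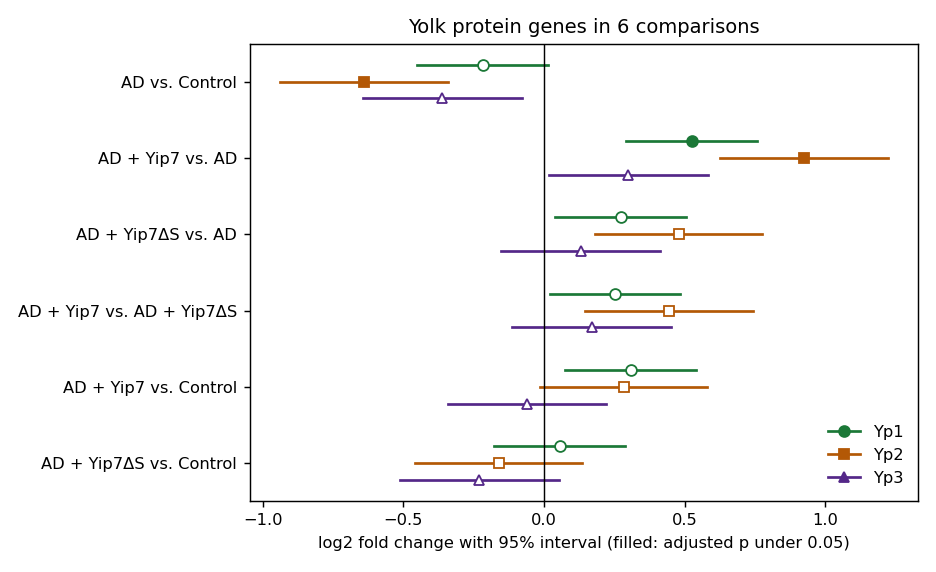
Log2 fold changes of the 3 yolk protein genes in the 6 comparisons between groups, each with its 95% interval from edgeR's quasi-likelihood fit of all 12 samples. Filled symbols passed an adjusted p of 0.05: *Yp2* in AD vs. Control (-0.64) and in AD + Yip7 vs. AD (0.92), and *Yp1* in AD + Yip7 vs. AD (0.53).

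The proportions of the 3 genes were compared within samples. The ratio of *Yp2* to *Yp1* counts within a sample, which needs no scaling between libraries, was 0.356, 0.388 and 0.313 in AD, 0.415, 0.452 and 0.521 in AD + Yip7, 0.365, 0.416 and 0.439 in AD + Yip7ΔS, and 0.447, 0.462 and 0.504 in Control. All AD samples lay below all AD + Yip7 and all Control samples. The ratio of *Yp3* to *Yp1* averaged 0.566 ± 0.0394 in AD, 0.483 ± 0.0486 in AD + Yip7, 0.514 ± 0.0588 in AD + Yip7ΔS and 0.624 ± 0.024 in Control (SD, n = 3), and all samples of the 3 Aβ42 groups lay below all Control samples.

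The ratio of *Yp3* to *Yp2* was looked at after the other values were known. It was 1.675, 1.4998 and 1.665 in AD, 1.14, 0.975 and 1.03 in AD + Yip7, 1.28, 1.19 and 1.32 in AD + Yip7ΔS, and 1.34, 1.35 and 1.28 in Control. AD lay above all other groups and AD + Yip7 below them, while AD + Yip7ΔS overlapped Control. The 18 two-sided exact permutation tests of these ratios, with 3 samples against 3, cannot give a p below 0.1, and their smallest adjusted p was 0.164.

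**Figure D3:**
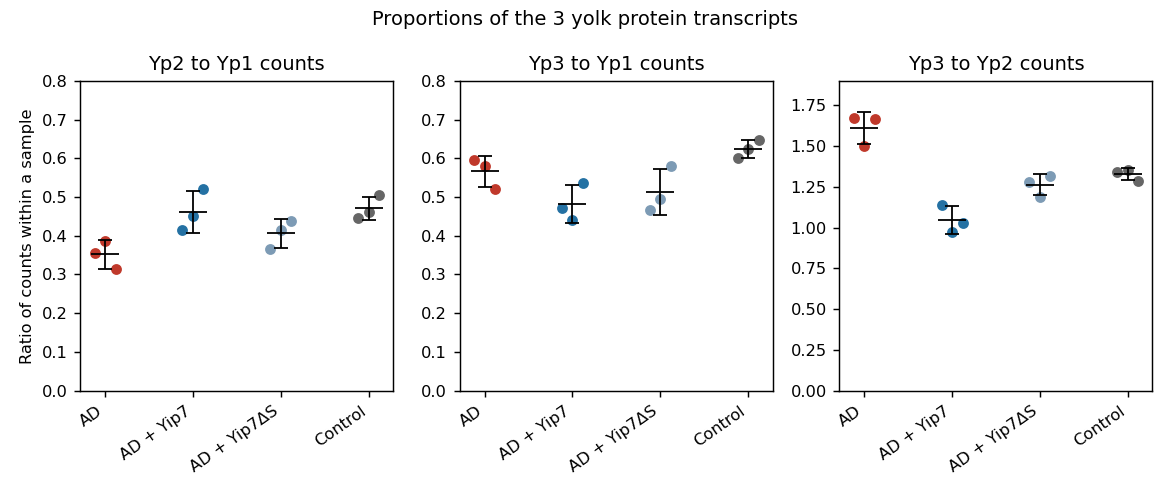
Ratios of read counts between the yolk protein genes within each sample, by group, with means and SD of 3 samples. *Yp3* to *Yp2* averages 1.61 in AD and 1.05 in AD + Yip7, with AD + Yip7ΔS (1.26) and Control (1.33) between them.

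Across the 12 samples the log2 levels of *Yp1* and *Yp2* had a Pearson correlation of 0.89, those of *Yp2* and *Yp3* of 0.82 and those of *Yp1* and *Yp3* of 0.55. After the group means were taken away the values were 0.30 for *Yp1* with *Yp2*, 0.82 for *Yp2* with *Yp3* and 0.32 for *Yp1* with *Yp3*. The points share their libraries and scaling factors, and these are descriptions over 12 samples.

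The other neighbours on the chromosome were read in the same way. CG15312, which ends 130 bp from *Yp1*, fell in AD to 34.0 ± 5.9 CPM, against 49.5 ± 5.4 CPM in Control (log2 fold change -0.54, adjusted p = 0.0198, edgeR). *Cht6*, a chitinase gene 147 bp from *Yp2*, had 7.13 ± 0.955 CPM in AD and 9.59 ± 0.885 CPM in Control (adjusted p = 0.115, edgeR). *rdgB*, 1204 bp from *Yp3*, had 220 ± 65.7 CPM in AD and 329 ± 85.4 CPM in Control, with overlapping samples (log2 fold change -0.58, adjusted p = 0.0712, edgeR). *Rtc1*, 947 bp from *Yp3* on its other side, had 8.59 ± 0.759 CPM in AD and 9.68 ± 0.684 CPM in Control, also overlapping (-0.17, adjusted p = 0.364, edgeR). Among all tested genes 11.6% were called lower in AD than in Control. None of CG15312, *Cht6*, *Rtc1* and *rdgB* passed the test between AD + Yip7 and AD (adjusted p 0.401, 0.638, 0.606 and 0.902, edgeR), where 1.81% of all tested genes did.

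Genes of the pathway that makes and uses yolk protein were read beside these values. In bulk heads, fewer fat body cells and less RNA per cell cannot be told apart. *yl*, which encodes Yolkless, was at or near 0 in all groups (mean 0.0168 CPM in AD, 0.0243 CPM in Control) and was not tested. Across the 6 comparisons, edgeR called between 0.0662% and 26% of all tested genes. None of the 4 tested receptor and receptor chaperone genes (*LpR1*, *LpR2*, *mgl* and *boca*) was called by edgeR in any of them. At an unadjusted p under 0.05 there was 1 in AD vs. Control, 1 in AD + Yip7ΔS vs. AD and 2 in AD + Yip7 vs. Control, and DESeq2 on all 12 samples called 1 in AD vs. Control, and between AD and Control their median log2 fold change was -0.23, beside -0.01 for all tested genes.

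Of 8 sex determination genes, 1 fell in AD against Control, beside 11.6% of all tested genes, namely *fru* (log2 fold change -0.50, adjusted p = 0.0302, edgeR). None was called in the other comparisons, where 0.0662% to 18.9% of all tested genes were (at an unadjusted p under 0.05, 1 in AD + Yip7ΔS vs. AD and 1 in AD + Yip7ΔS vs. Control, and 0 by DESeq2 on all 12 samples). *dsx*, whose product activates the yolk protein genes in females, had 35.4 ± 8.92 CPM in AD and 46.7 ± 7.90 CPM in Control, with overlapping samples (adjusted p = 0.138). *tra*, which directs the female splicing of *dsx*, had 22.3 ± 2.06 CPM in AD and 20.0 ± 1.93 CPM in Control (adjusted p = 0.359).

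Sex-biased genes of the head fat body were mixed. *fit*, which encodes a satiety peptide of the female fat body, had 57.3, 152 and 78.0 CPM in AD, 173, 277 and 312 CPM in AD + Yip7, 143, 194 and 171 CPM in AD + Yip7ΔS, and 322, 335 and 436 CPM in Control. It fell in AD against Control (log2 fold change -1.93 ± 0.31, adjusted p = 0.000804, edgeR) and rose in AD + Yip7 against AD (1.41 ± 0.31, adjusted p = 0.0413). In AD + Yip7ΔS its samples overlapped those of AD (0.82 ± 0.31, adjusted p = 0.221). *sxe2*, a lipase-like gene, also fell in AD (-0.83, adjusted p = 0.00102). It rose in AD + Yip7ΔS against AD (0.63, adjusted p = 0.0404) and was not called in AD + Yip7 against AD (0.38, adjusted p = 0.252). Between AD and Control, *to* (0.36, adjusted p = 0.067) and *Cyp4d21* (-0.13, adjusted p = 0.616) were not called.

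Of 15 tested fat body genes, 6 fell and 3 rose in AD against Control, beside 11.6% lower and 26% called in either direction among all tested genes. Their median log2 fold change was -0.54. The 3 that rose were *bmm*, a lipase gene (0.71, adjusted p = 0.0039, edgeR), and *Lsp1gamma* (mean 0.368 CPM in AD) and *Fbp2* (mean 0.35 CPM in AD). *Lsp1gamma* was high enough for the count filter in AD alone, and *Fbp2* in AD and 1 AD + Yip7 sample. The calls of *Lsp1gamma* and *Fbp2* were thus partly fixed by the filter and are no separate support for a rise. *AkhR*, the receptor for adipokinetic hormone, had 52.1 ± 1.81 CPM in AD and 136 ± 14.5 CPM in Control (-1.38, adjusted p = 1e-06), and rose in AD + Yip7 against AD (0.67, adjusted p = 0.00366). *Lsd-1*, which coats lipid droplets, fell in AD (-1.44, adjusted p = 1e-06) and was not called in AD + Yip7 against AD (0.25, adjusted p = 0.309). *Lsp1beta*, a larval serum storage protein gene, had 21.4 ± 12.8 CPM in AD, 91.9 ± 54.8 CPM in AD + Yip7, 58.8 ± 1.70 CPM in AD + Yip7ΔS and 1884 ± 489 CPM in Control. It fell in AD against Control (-6.46, adjusted p = 5e-06, edgeR) and rose in AD + Yip7 against AD (2.105, adjusted p = 0.0389).

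*Lsp2*, its relative, had 11.4, 20.9 and 18.4 CPM in AD, 82.1, 9.50 and 401 CPM in AD + Yip7, 152, 80.3 and 170 CPM in AD + Yip7ΔS, and 838, 646 and 664 CPM in Control. It fell in AD (-5.40, adjusted p = 0.00145, edgeR) and varied widely among AD + Yip7 samples. *apolpp*, the precursor of the main blood lipoprotein and named here after its values were seen, fell in AD (-0.87, adjusted p = 0.000345), rose in AD + Yip7 (0.59, adjusted p = 0.0371) and rose in AD + Yip7ΔS (0.55, adjusted p = 0.0444), both against AD. In AD + Yip7 against AD, 3 of the 15 fat body genes rose, beside 0.945% of all tested genes, and 0 fell (median 0.31, beside 0.02 for all tested genes; 9 at an unadjusted p under 0.05 and 5 called by DESeq2 on all 12 samples, in either direction), and in AD + Yip7ΔS against AD 1 rose and 0 fell, where 1.85% of all tested genes were called (median 0.23; 8 at an unadjusted p under 0.05 and 2 called by DESeq2, in either direction).

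**Figure D4:**
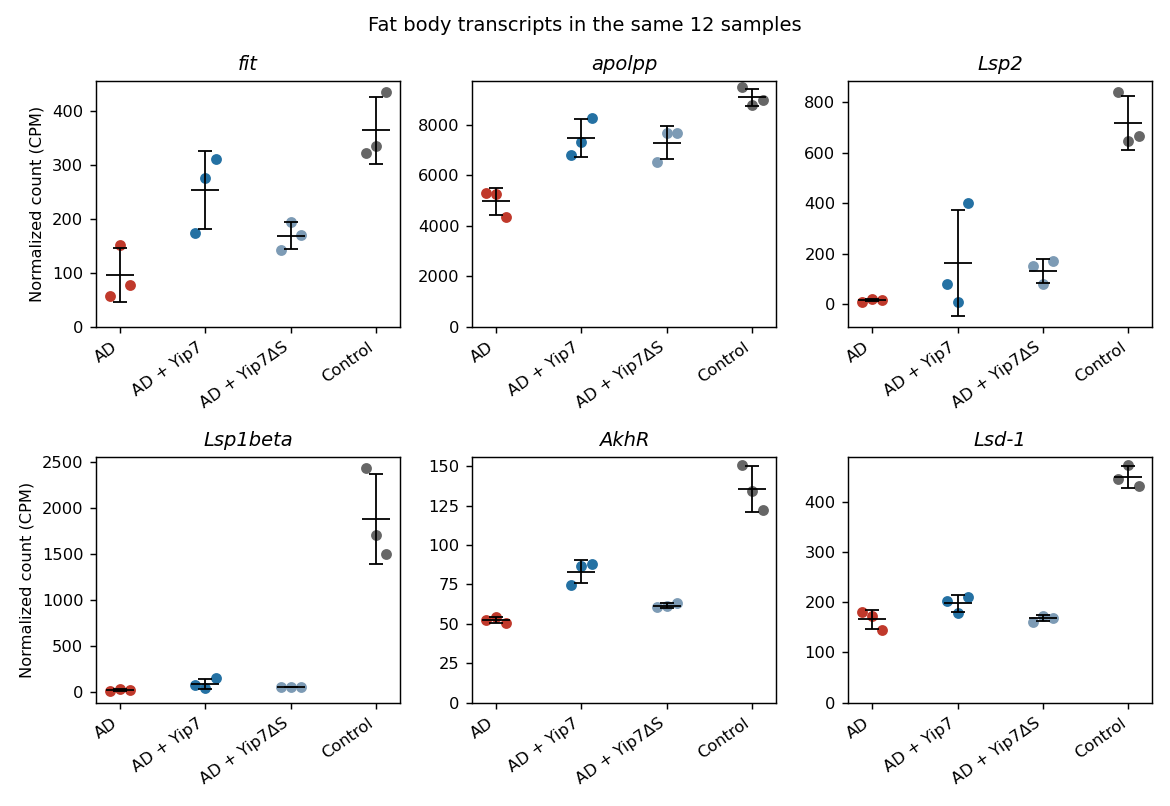
Levels of 6 fat body transcripts in the same samples, in CPM after TMM scaling, by group, with means and SD of 3 samples. The 6 were picked from those called lower in AD than in Control. The 3 other fat body genes called higher were *bmm*, *Lsp1gamma* and *Fbp2*, and *Lsp1gamma* and *Fbp2* passed the count filter mainly through AD. The means of *Lsp1beta* are 21.4 CPM in AD, 91.9 CPM in AD + Yip7, 58.8 CPM in AD + Yip7ΔS and 1884 CPM in Control.

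Hormone and nutrient genes that act upstream of yolk production were read next. Of 9 juvenile hormone genes 2 rose and 2 fell in AD against Control, where 26% of all tested genes were called. *Jhe*, a juvenile hormone esterase (0.98, adjusted p = 0.000224, edgeR), and *jhamt*, which completes the hormone's synthesis (1.29, adjusted p = 0.0208), rose, while *Kr-h1*, a target of the hormone, fell (-0.97, adjusted p = 0.00594). None of the 9 was called by edgeR in AD + Yip7 or in AD + Yip7ΔS against AD, where 1.81% and 1.85% of all tested genes were. Of the 9, 2 and 3 had an unadjusted p under 0.05 there, and DESeq2 on all 12 samples called 0 and 2. Of 14 ecdysone genes 0 passed edgeR's adjusted threshold in AD against Control, *EcR*, the receptor, included (-0.35, adjusted p = 0.256). In that comparison 2 of the 14 had an unadjusted p under 0.05, and DESeq2 called 1. edgeR called 0 of them in AD + Yip7 against AD, and 1 in AD + Yip7ΔS against AD (*Eip75B*, 0.69, adjusted p = 0.0438), beside 1.81% and 1.85% of all tested genes. In AD + Yip7ΔS against Control 2 were called higher and 1 lower, beside 18.9% of all tested genes.

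Of 14 insulin and nutrient genes, 4 fell and 0 rose in AD against Control, beside 11.6% lower among all tested genes. *Ilp2* (-1.54, adjusted p = 2e-06, edgeR) and *Ilp3* (-2.07, adjusted p = 3e-06), insulin-like peptide genes of brain neurons, were among them, as was *tobi* (-2.71, adjusted p = 0.00332), a target of insulin-like and adipokinetic signals in the fat body. *Ilp3* rose in AD + Yip7 against AD (0.78, adjusted p = 0.0355), the 1 call of this list there in edgeR, beside 1.81% of all tested genes. DESeq2 on all 12 samples called 2 of the list there. Among 6 tested lipase relatives of the yolk proteins, 2 fell and 0 rose in AD against Control, beside 11.6% lower among all tested genes. Their median log2 fold change was 0.35, above 0. The fallers were *sxe2*, already given among the sex-biased genes, and CG5162 (-0.67, adjusted p = 0.00198, edgeR). CG5162 rose in AD + Yip7 against AD (0.70, adjusted p = 0.0132, edgeR).

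Markers of other tissues were read in the same samples, and the lists differed in how they shifted. In AD + Yip7 against AD, edgeR called 0 of the hemocyte, neuronal, glial and photoreceptor genes, where 1.81% of all tested genes were called. The 25 listed digestive protease genes in the table, *yip7* among them, summed to 341 to 487 CPM in AD, 126 to 256 CPM in AD + Yip7, 75.5 to 96.6 CPM in AD + Yip7ΔS and 0.773 to 9.67 CPM in Control. In these sums *yip7* alone had 135, 173 and 122.7 CPM in AD + Yip7, and 73.7, 88.1 and 81.1 CPM in AD + Yip7ΔS. *Jon65Aiii*, another of them, had 110, 128 and 87.0 CPM in AD, and 0, 38.8 and 0.931 CPM in AD + Yip7. In AD + Yip7ΔS it had 0.521, 4.80 and 0.0259 CPM. Of the 25, 11 passed the count filter, and 10 of these rose in AD against Control. Some of them, such as *epsilonTry* and *Jon99Ci*, were high enough for the filter in AD alone. The count of 10 is therefore partly fixed by the filter. It cannot be read against the 26% of all tested genes called in either direction. The 5 hemocyte genes summed to 126 to 171 CPM in AD, 119 to 216 CPM in AD + Yip7, 209 to 242 CPM in AD + Yip7ΔS and 247 to 524 CPM in Control, with 4 of 5 called lower in AD than in Control, beside 11.6% of all tested genes. In the same comparison 1 of 4 neuronal genes (*nSyb*), 2 of 4 glial genes (*Eaat1* and *repo*) and 0 of 4 photoreceptor genes fell in edgeR's test (3 photoreceptor genes at an unadjusted p under 0.05, and 2 by DESeq2). The part of these shifts in the yolk protein values was not tested.

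By a correlation over the 12 samples with the mean log2 level of the 3 yolk protein genes, the genes most alike among 10574 others were *prc* (Pearson r = 0.90), *tsl* (0.90), CG11951 (0.89), *toy* (0.88) and CG17646 (0.87). *prc* was near the detection floor, with mean levels of 0.155 CPM in AD, 0.72 CPM in AD + Yip7, 0.287 CPM in AD + Yip7ΔS and 0.605 CPM in Control. CG17646 had mean levels of 89.0 CPM in AD, 236 CPM in AD + Yip7, 157 CPM in AD + Yip7ΔS and 195 CPM in Control. These genes were picked for likeness to a mean that is lowest in AD and highest in AD + Yip7. A higher level in AD + Yip7 than in AD was thus built into the choice, and no p is given for it. Fat body genes were spread over the ranking, with *Hnf4* at rank 26 (0.80), *fit* at rank 36 (0.79), *apolpp* at rank 40 (0.77), *Lsp2* at rank 541 (0.55), *Lsp1beta* at rank 813 (0.50) and *srp* at rank 1855 (0.38). *Kr-h1* was at rank 233 (0.65) and *dsx* at rank 615 (0.54). With deviations from the group means the 5 most alike were *Ced-12*, *Sply*, *hoip*, *fal* and *cN-IIIB*, so that 0 of the 5 genes recurred.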

How the data were processed

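Per the labels and the study's methods, RNA of pooled heads was sequenced, and the authors trimmed reads with fastp, mapped them with HISAT2 to dm6 and counted reads per gene with HTSeq-count. The submitters' processing notes name HISAT2 2.1.0, StringTie 1.3.1, DESeq2 1.36.0 and FastQC. The annotation, strand setting and treatment of reads from similar genes are not given in the sources used here, so reads shared between the yolk protein genes may have been lost or split. The deposited values are raw counts of whole reads per gene.

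Counts of all 12 samples were fitted together in edgeR 4.0.16 (R 4.3.3; filterByExpr, TMM, quasi-likelihood test, no covariate), with Benjamini-Hochberg adjustment within each comparison and a threshold of 0.05. Standard errors are the log2 fold change divided by the root of F. CPM uses TMM-scaled totals; log2 levels add a prior count of 2; RPKM divides by merged exon length from the Ensembl annotation of the same assembly. Ratios were compared by exact permutation tests. Scripts were tested on simulated data. Alternatives were DESeq2 1.42.0, other scalings and count filters, a replicate block, and each sample left out. The named genes were the 3 yolk protein genes, up to 3 genes per list with the smallest adjusted p in AD vs. Control, some regulators, and the 5 most alike; the genes and lists were chosen with earlier results of these data known. No protein or promoter sequences were analysed here.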

Additional observations from a re-analysis of the deposited data

How the results depend on the processing

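*Yp2* stayed called, both in AD vs. Control and in AD + Yip7 vs. AD, under all 10 alternatives and all 12 fits that left out 1 sample. Of the other alternatives for the yolk protein genes, 166 results kept direction and side of the threshold, 11 became called and 3 lost the call. The lost calls are all *Yp1* in AD + Yip7 vs. AD: log2 fold change 0.47 (adjusted p = 0.103) with upper quartile scaling, 0.51 (0.149) with no count filter and 0.53 (0.0794) with the replicate number as a block. Deviations from group means correlated at -0.39 to 0.29 over 18 pairs of samples with the same number (median 0.05). Over 36 pairs with different numbers they correlated at -0.26 to 0.498 (median -9e-04). These values cannot tell whether samples with the same number share a batch. The block changed no other yolk protein call. DESeq2 on all 12 samples, which gave smaller standard errors, added calls in AD vs. Control (*Yp1* -0.22, *Yp3* -0.36), AD + Yip7ΔS vs. AD (*Yp1* 0.27, *Yp2* 0.47), AD + Yip7 vs. AD + Yip7ΔS (*Yp1* 0.25, *Yp2* 0.44) and AD + Yip7 vs. Control (*Yp1* 0.30). DESeq2 on the 6 samples of a comparison added AD vs. Control (*Yp1* -0.22, *Yp3* -0.37), AD + Yip7ΔS vs. AD (*Yp2* 0.47) and AD + Yip7 vs. Control (*Yp1* 0.30).

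With 1 sample left out, the values for *Yp1* in AD + Yip7 vs. AD lay between 0.50 and 0.54, *Yp3* in AD vs. Control between -0.40 and -0.31, *Yp1* in AD + Yip7 vs. Control between 0.28 and 0.34, and *Yp3* in AD + Yip7 vs. Control between -0.17 and 0.0187, the last value, without AD + Yip7 replicate 2, being the only change of sign among these fits. Between 83 and 262 genes were called in AD + Yip7 vs. AD (191 with all samples), lowest without AD replicate 1; between 74 and 219 in AD + Yip7ΔS vs. AD (196), lowest without AD + Yip7ΔS replicate 1; between 6 and 15 in AD + Yip7 vs. AD + Yip7ΔS (7), highest without AD + Yip7 replicate 3; and between 934 and 1834 in AD + Yip7 vs. Control (1541), lowest without AD + Yip7 replicate 2. In AD + Yip7 vs. AD, DESeq2 called 449 genes (all 12 samples) and 520 (6 samples). It called 495 and 359 in AD + Yip7ΔS vs. AD, 135 and 131 in AD + Yip7 vs. AD + Yip7ΔS, and on 6 samples 2550 in AD + Yip7 vs. Control. edgeR on 6 samples called 120 in AD + Yip7ΔS vs. AD, and no count filter gave 16 in AD + Yip7 vs. AD + Yip7ΔS. Upper quartile scaling gave 71 higher and 115 lower genes in AD + Yip7 vs. AD (100 and 91 with TMM), and 68 and 143 in AD + Yip7ΔS vs. AD (92 and 104). The cause of these shifts was not tested. With 3 samples a group, an exact test cannot pass 0.05. Counting error at this depth is small for the yolk protein genes, while for genes near 3 counts a sample it is not.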

Other observations

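A few eggshell genes had low counts in these heads, where no follicle cells are known. *Cp7Fb*, which lies in the chorion gene cluster of the X chromosome, averaged 0.335 ± 0.0333 CPM in AD, 2.00 ± 0.996 CPM in AD + Yip7, 2.34 ± 0.795 CPM in AD + Yip7ΔS and 0.683 ± 0.157 CPM in Control (SD, n = 3 each). It rose against AD in AD + Yip7 (log2 fold change 2.56, adjusted p = 0.00886, edgeR's quasi-likelihood test) and in AD + Yip7ΔS (2.79, adjusted p = 0.0053). *Cp7Fc*, from the same cluster, had 0.151, 0.0494 and 0.0238 CPM in AD, near the level of 3 counts per sample, so no fold is given. It had 1.35, 0.665 and 0.318 CPM in AD + Yip7, 0.521, 0.582 and 0.985 CPM in AD + Yip7ΔS, and 0.348, 0.217 and 0.36 CPM in Control. These genes were singled out after their values were seen, and they were 2 of the 6 follicle cell and eggshell genes tested. Both were called higher by edgeR in AD + Yip7 and in AD + Yip7ΔS against AD. Among all tested genes 0.945% were called higher in the first comparison, and 1.85% in either direction in the second. Of the 17 listed genes in the table only 6 passed the count filter. *Cp7Fc* passed only because its counts were high in the Yip7 groups. The count of 2 of 6 therefore cannot be read against these shares. The other 4 were not called in either. In AD + Yip7 the means of *psd*, *Cp18* and *yellow-g* were below those in AD, and that of *Cp7Fa* was above.

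*Dhc16F*, a dynein heavy chain gene that appeared when likeness to the yolk protein genes was ranked by Spearman correlation (0.87 over 12 samples), averaged 0.601 CPM in AD, 17.5 CPM in AD + Yip7, 0.89 CPM in AD + Yip7ΔS and 1.12 CPM in Control. Set against AD, AD + Yip7 had a log2 fold change of 4.85 ± 0.38 (SE). The ranking that picked *Dhc16F* used the same 12 samples, in which the mean of the yolk protein genes is lowest in AD and highest in AD + Yip7. No p is given for this contrast, because it would use the values that selected the gene. That list shared 3 of its 5 genes with the Pearson list.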
